A study of Mus musculus with 4 samples.

Results

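Interferon-stimulated genes are the genes that cells switch on when they sense interferon, and 35 of them were followed in mouse colon with and without the transcription factor Nkx2.2 in the gut epithelium. The members were chosen as a list of gene symbols, and all 35 were found among the 23235 symbols of the gene files. The study measured RNA in 4 libraries from the colon of adult mice aged 6 weeks. The 2 control libraries carried the genotype Nkx2.2flox/+, so the controls had a floxed allele too, and their labels name no Cre. The 2 mutant libraries carried Nkx2.2flox/flox with Villin-Cre/+, a transgene that drives recombination in the intestinal epithelium and not in immune, vascular or muscle cells of the gut wall. The strain was given as mixed in both groups, and the tissue was a 2 cm piece of whole colon taken after the caecum. Nothing in the labels says that the libraries are from different animals, and p-values then describe only the spread between these libraries, which may be technical.

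Interferons are secreted proteins that warn cells of infection. Type I and type III interferons act through the kinases JAK1 and TYK2 and a complex that holds STAT2 and IRF9 and binds the interferon-stimulated response element in promoters, and interferon gamma acts through the gamma-activated site. The induced genes code for RNA sensors, enzymes that block translation or degrade viral RNA, GTPases that attack viruses and vacuoles, and the machinery that loads peptides onto MHC class I. Healthy gut tissue holds a standing level of this program, and type III interferon acts mainly on epithelial cells.

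All 4 libraries held colon epithelium, with the 11 epithelial markers summing to 21013 and 29525 FPKM in the controls and 23451 and 23340 FPKM in the mutants (FPKM, a level per transcript length and library size). Car1 led these markers in the authors' deposited table of DESeq results, at a control mean of 218274 normalized counts, against 34059 for Krt8, the next. Nkx2-2 itself stood at 0.724 and 0.609 FPKM in the controls and at 0.125 and 0.351 FPKM in the mutants. It lay on 16 fragments at most in a library and under the filter, so it was not tested. Tph1, the serotonin-making enzyme of enterochromaffin cells, fell by 3.79 on the log2 scale (SE 0.36, adjusted p = 0.0139 in limma, a linear model of log2(FPKM + 0.5) with p adjusted over all tested genes). Taking the depth of control 1 as the unit, control 2 reached 1.13 and the mutants 0.464 (mutant 1) and 1.03 (mutant 2). Mutant 1 also stood low as deposited, with the median tested gene at -0.19 from its own mean on the log2 scale against 0.11, 0.05 and 0.02 in control 1, control 2 and mutant 2. The median change of all 13997 tested genes, mutant against control, was therefore -0.17 as deposited and 0.01 after median ratio rescaling, which divides each library by its median ratio to the gene means.

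No interferon-stimulated gene passed the test for a difference between mutant and control colon. All 35 passed the filter of a mean of at least 0.5 FPKM, and 0 of 35 passed limma's adjusted threshold of 0.05, where 0.0643% of all tested genes did. The smallest adjusted p among them was 0.825 (limma). At an unadjusted p under 0.05 limma called 0 of 35, against 4.82% of all genes, and the authors' deposited table of DESeq results also called 0 of 35, with an adjusted p of 1 for each, where it called 0.0384% of its genes. With a library left out, the members' median change ran from -0.11 without control 1 to 0.19 without control 2, against -0.14 and -0.20 for all tested genes. It was 0.07 without mutant 1 and 0.03 without mutant 2, against -0.07 and -0.28 for all tested genes. Fitted changes ran from -0.30 (Ifi35) to 0.49 (Oas2) on the log2 scale. For 33 of the 35 the 95% interval of the change as deposited excluded a doubling and a halving. The exceptions were Oas2, the RNA-sensing synthase, and Gbp2, a vacuole-attacking GTPase. Such intervals were not counted after rescaling. The difference between groups was smaller than the wider of the within-group gaps in 29 of 35 members, against 76.9% of all tested genes.

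The direction of the small differences depended on the scale and on control 1. As deposited, 23 members were higher and 12 lower in the mutants, against 17.4% of all genes higher, and after median ratio rescaling 32 were higher and 3 lower, against 51.0% of all genes higher. The median change of the members was 0.05 as deposited and 0.23 after rescaling, and it stood 0.22 above the median of all tested genes on both scales. Without control 1, the median of the members as deposited was -0.11 and stood 0.03 above that of all genes. It stood 0.39 above when control 2 was left out, 0.13 above when mutant 1 was, and 0.31 above when mutant 2 was. After rescaling, Oas2 (0.67, SE 0.23), Oasl1 (0.34, SE 0.13) and Bst2 (0.28, SE 0.11) were the 3 members higher at an unadjusted p under 0.05 in limma, against 1.49% of all genes, and each had an adjusted p of 0.998. In these bulk samples, fewer cells of a type and less RNA per cell cannot be told apart.

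**Figure D1:**
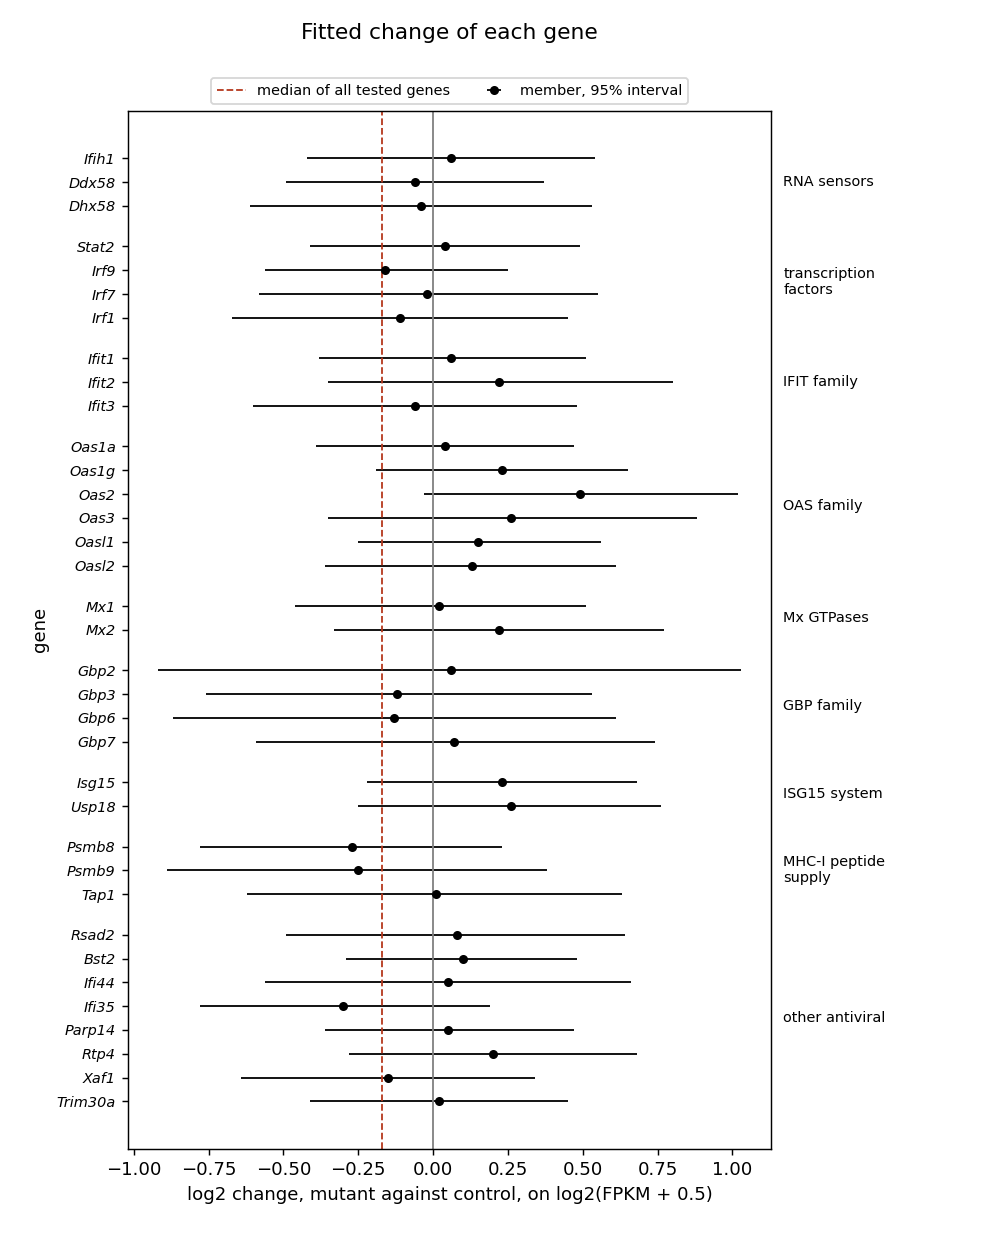
Fitted log2 change of each of the 35 genes, mutant against control on log2(FPKM + 0.5), with points for the change, bars for its 95% interval and a dashed line at the median of all tested genes. Every interval spans 0, and the points lie between -0.30 for Ifi35 and 0.49 for Oas2.

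Across single libraries the members showed 2 patterns, picked out after the values were seen, in which library medians within a genotype stood apart. To show them, each value was centred: the log2(FPKM + 0.5) of a gene minus its mean over the 4 libraries, minus the median of that deviation over all tested genes in the library. After centring, 25 of 35 members were lowest in control 1, against 26.8% of all genes, and 9 were lowest in mutant 1, against 28.7%. The remaining member, Parp14, an ADP-ribosyltransferase, was lowest in control 2, as were 22.4% of all genes. In 20 members mutant 1 was the highest library after centring, against 28.0% of all genes. The first pattern held all 6 OAS genes, all 3 IFIT genes, all 3 RNA sensors, both Mx genes and both genes of the ISG15 system. In some of these genes the controls stood close, at centred values of -0.12 and -0.07 for Mx1, -0.20 and -0.19 for Mx2 and -0.24 and -0.15 for Ifit2. Both Mx genes were lowest in control 2 as deposited. The second pattern held all 4 guanylate-binding protein genes and all 3 genes of the peptide supply to MHC class I, each lowest in mutant 1 and highest in mutant 2, both as deposited and after centring. Median centred values of the OAS genes were -0.39 and 0.01 in control 1 and control 2 and 0.36 and 0.04 in mutant 1 and mutant 2. For the guanylate-binding proteins they were -0.10, -0.05, -0.33 and 0.44 in the same order. As deposited, 19 members were lowest in control 1, against 8.84% of all genes, and 11 in mutant 1, against 66.3%.

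**Figure D2:**
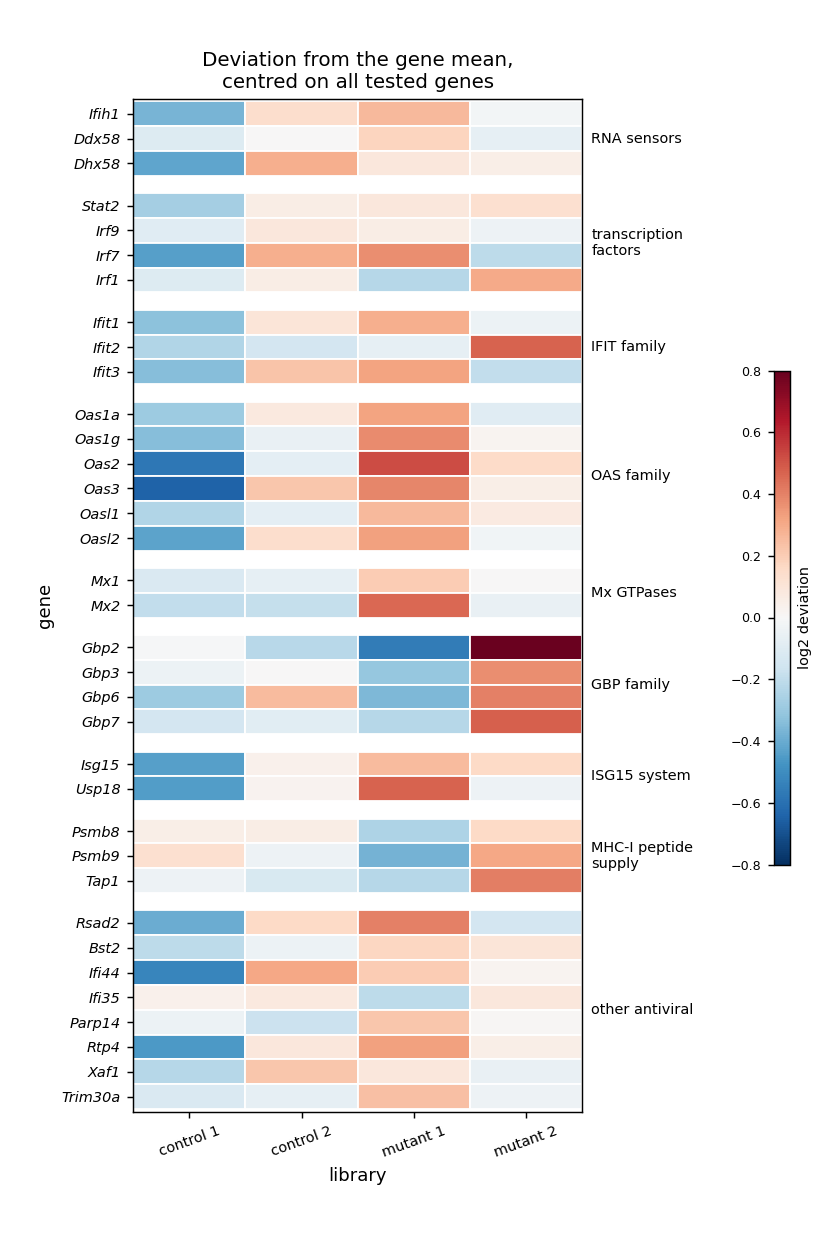
Deviation of each gene from its own mean, in log2 units centred on all tested genes, with 1 row for each gene, 1 column for each library and red for higher. Control 1 is blue for the sensor, IFIT, OAS and ISG15 groups, whereas the GBP and peptide supply groups are blue in mutant 1 and red in mutant 2.

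Promoter sequences from RefSeq (build GRCm38.p6, 250 bases before to 50 bases after the start) matched 27 of the 35 members. The response element was searched as GAAA, any 2 bases, then GAAA, and the gamma-activated site as TTC, any 3 bases, then GAA, both on either strand. The response element was found in 15 of the 27 (55.6%), against 3.99% of 27025 genes with a promoter in the table, and the gamma-activated site in 7 (25.9%) against 9.55%. The members were listed as interferon-stimulated genes, so an excess of these motifs comes with the list and is no result of these libraries. The 2 motifs can overlap, and 3 members held both. The response element stood in 3 of 5 matched OAS genes, 2 of 3 IFIT genes and 3 of 3 matched guanylate-binding protein genes, and in 0 of the 3 genes of the peptide supply to MHC class I. Genes of both library patterns thus carried it. A match describes letters in this window and is not a measured binding site. The stretches below are shown because they carry a motif upstream of the start of members named in the results, with the sequence read along the gene's own strand. Capitals mark the response element unless the line names the gamma-activated site. In Bst2 a gamma-activated site overlaps the response element and is not marked.
Isg15, chr4:156200855-156200916, minus strand: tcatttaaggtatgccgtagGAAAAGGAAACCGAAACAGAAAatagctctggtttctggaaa
Ifit1, chr19:34640765-34640833, plus strand: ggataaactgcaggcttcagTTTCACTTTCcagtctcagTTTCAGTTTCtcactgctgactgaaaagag
Oas1a, chr5:120907526-120907565, minus strand: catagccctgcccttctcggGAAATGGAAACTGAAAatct
Oas1g, chr5:120887614-120887651, minus strand: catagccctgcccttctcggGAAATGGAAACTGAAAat
Bst2, chr8:71537567-71537622, minus strand: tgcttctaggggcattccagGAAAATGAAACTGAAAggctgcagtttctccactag
Gbp2, chr3:142620584-142620633, plus strand: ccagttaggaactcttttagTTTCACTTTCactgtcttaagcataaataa
Gbp3, chr3:142559979-142560034, plus strand: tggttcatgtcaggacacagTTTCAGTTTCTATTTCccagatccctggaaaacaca
Irf1 with the gamma-activated site, chr11:53769904-53769952, plus strand: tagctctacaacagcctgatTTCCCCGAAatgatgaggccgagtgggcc
Psmb8 with the gamma-activated site, chr17:34198078-34198126, plus strand: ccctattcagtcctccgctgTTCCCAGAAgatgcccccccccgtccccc

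In Isg15 and Bst2 the response elements ran into each other, and in Ifit1 a pair of them stood apart. Oas1a and Oas1g, neighbours on chromosome 5, carried the same letters in this stretch, within 73 bases that their promoters share. In 13 genes the element lay before the start, with its first base 18 to 222 bases upstream.

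The RNA sensors detect viral RNA in the cytoplasm and signal through MAVS. Ifih1 (MDA5, which senses long double-stranded RNA; mm9 chr2:62433850-62484312) stood at 21.5 and 29.6 FPKM in the controls and at 27.0 and 25.8 FPKM in the mutants. Both mutants lay between the controls. Ddx58 (RIG-I, which senses RNA ends) stood at 12.4 and 12.9 FPKM in the controls and at 12.3 and 12.0 FPKM in the mutants, the narrowest spread of the 3. The groups did not overlap, with a change of -0.06 as deposited (SE 0.19, limma, adjusted p = 0.925) that turned to 0.12 after rescaling. Dhx58 (LGP2, which tunes both sensors) ranged from 10.1 FPKM in control 1 to 15.99 FPKM in control 2, and the mutants stood inside that range. As deposited 1 of the 3 sensors was higher in the mutants, and after rescaling all 3 were, against 17.4% and 51.0% of all genes.

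The 4 transcription factors switch on the other members, and 0 of 4 passed the threshold. Of them, 1 was higher in the mutants as deposited and 4 after rescaling, against 17.4% and 51.0% of all genes. Irf1, an early factor of the interferon gamma response (mm9 chr11:53583516-53591876), stood at 206 and 222 FPKM in the controls and at 153 and 256 FPKM in the mutants. The mutants bracketed both controls, at a mean of 214.0 ± 10.8 FPKM in controls and 204.3 ± 72.9 FPKM in mutants (SD, n = 2). Irf7, which amplifies interferon alpha genes, stood at 132 and 209.8 FPKM in the controls and at 187 and 144.5 FPKM in the mutants, so here the controls bracketed the mutants. Stat2, a part of the type I complex, ran from 27.96 FPKM in control 1 to 34.6 FPKM in mutant 2. Irf9, the DNA-binding part of the type I complex, stood at 42.3 and 46.0 FPKM in the controls and at 37.9 and 41.2 FPKM in the mutants. Its groups did not overlap as deposited (change -0.16, SE 0.18, limma, adjusted p = 0.834), and the change was 0.03 after rescaling. Irf7, Irf9 and Irf1 overlap other annotated genes on mm9, Phrf1, Rnf31 and Gm17334, and whether the counting used strand is not given in the sources used here.

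The OAS family held the member with the smallest p, and 0 of its 6 genes passed the threshold. All 6 were higher in the mutants on both scales, against 17.4% of all genes as deposited and 51.0% after rescaling. These synthases make oligoadenylates in response to double-stranded RNA, which activate the nuclease RNase L. Oas2 (mm9 chr5:121180342-121199857) stood at 4.81 and 6.73 FPKM in the controls and at 8.72 and 7.76 FPKM in the mutants. Both mutants lay above both controls, at 8.24 ± 0.677 FPKM against 5.77 ± 1.35 FPKM (SD, n = 2), a ratio of means of 1.43. The change was 0.49 (SE 0.23, 95% interval -0.03 to 1.02, limma, adjusted p = 0.825), and the authors' deposited table gave 0.68. It was 0.27 without control 1 and 0.72 without control 2. Oas1g stood at 38.3 and 44.7 FPKM in the controls and at 51.2 and 46.2 FPKM in the mutants, and Oasl1, a like protein without the synthase activity, at 27.1 and 29.0 against 31.1 and 31.5 FPKM. These 3 genes and both Mx genes were the 5 members with both mutants above both controls, against 3.39% of all genes.

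In the other OAS genes control 1 stood apart or the groups mixed. Oas3 stood at 13.9 FPKM in control 1, whereas control 2, mutant 1 and mutant 2 stood close together at 24.6, 23.5 and 21.3 FPKM. Oasl2 followed the same order, with 53.4 FPKM in control 1, 76.1 FPKM in control 2 and 73.4 and 66.2 FPKM in mutant 1 and mutant 2. Oas1a, the most abundant OAS gene, stood at 71.9 and 89.6 FPKM in the controls and at 88.7 and 76.8 FPKM in the mutants. Its change of 0.04 (SE 0.19, limma, adjusted p = 0.949) became -0.12 without control 1 and -0.06 without mutant 1. Reads of the near-identical Oas1 copies can be shared between genes. The authors' deposited control count for Oas1g was 0.340 of the fragments that the FPKM intervals imply, and for Oas1a 0.556, whereas the median member stood at 0.776. Values of single Oas1 copies are therefore uncertain.

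The IFIT genes, whose proteins bind viral RNA ends and block translation, lie side by side on chromosome 19. Ifit1 (mm9 chr19:34715379-34724499) stood at 44.4 and 57.6 FPKM in the controls and at 55.6 and 50.4 FPKM in the mutants, with the mutants inside the range of the controls. Ifit3 stood at 11.6 and 16.7 FPKM in the controls and at 14.9 and 11.9 FPKM in the mutants, again inside that range. Ifit2, which promotes death of infected cells, departed from its neighbours. It stood at 35.4 and 36.2 FPKM in the controls, 32.2 FPKM in mutant 1 and 54.4 FPKM in mutant 2, so a single library was high. Its change of 0.22 (SE 0.25, limma, adjusted p = 0.834) became -0.15 without mutant 2 and 0.60 without mutant 1. Ifit3 has a close copy with which reads may be shared, and its deposited count ratio was 0.570.

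The Mx genes code for dynamin-like GTPases that trap viral nucleocapsids, and they were the least abundant members. Mx1 (mm9 chr16:97668642-97684513) stood at 4.06 and 4.002 FPKM in the controls and at 4.09 and 4.13 FPKM in the mutants. The groups did not overlap, but the means of 4.03 ± 0.0431 and 4.11 ± 0.0247 FPKM (SD, n = 2) had a ratio of 1.019. Mx2 stood at 2.34 and 2.23 FPKM in the controls and at 3.10 and 2.41 FPKM in the mutants, on 45.2 to 81.1 fragments a library. Its change was 0.22 (SE 0.24, limma, adjusted p = 0.834), and it was 0.06 without mutant 1 and 0.38 after rescaling. The isoform files split Mx1 between a coding RefSeq transcript and an entry with the prefix NR, which RefSeq uses for transcripts not taken to be coding. The NR entry took 17.2% and 9.20% of Mx1 FPKM in the controls and 32.9% and 59.3% in the mutants. This isoform split was picked out after its values were seen, was not tested, and rests on 71.0 to 173.3 fragments a library for the whole gene. All measured Mx2 signal likewise lay on an NR entry, at 99.99% or more in each library.

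The ISG15 system comprises a ubiquitin-like protein and its protease. Isg15 (mm9 chr4:155573533-155574927) stood at 80.5 and 108 FPKM in the controls and at 105 and 114 FPKM in the mutants. Usp18, which removes ISG15 from proteins and damps the type I receptor, stood at 16.03 and 21.7 FPKM in the controls and at 24.8 and 20.2 FPKM in the mutants. For both genes control 1 was the lowest library and the other 3 overlapped. The change of Isg15 was 0.23 (SE 0.20, limma, adjusted p = 0.825), with 0.02 without control 1 and 0.44 without control 2.

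Of the remaining 8 antiviral members, 6 were lowest in control 1 after centring. Rsad2 (viperin, which makes a chain-terminating nucleotide) stood at 6.20 and 8.96 FPKM in the controls and at 8.95 and 6.94 FPKM in the mutants. Ifi44 stood at 10.9 and 19.1 FPKM in the controls and at 14.8 and 15.2 FPKM in the mutants, and Rtp4 at 37.2 and 52.4 against 52.0 and 49.5 FPKM. In each of the 3 the mutants lay within the range of the controls. Bst2 (tetherin, which holds budding virions on the cell; mm9 chr8:74058161-74061336) was the most abundant of the 8, at 95.8 and 102 FPKM in the controls and at 101 and 111 FPKM in the mutants. Its change was 0.10 (SE 0.17, limma, adjusted p = 0.861), with 0.03 without mutant 2, 0.17 without mutant 1 and 0.28 after rescaling. Parp14, Xaf1 and Trim30a varied by at most 1.33-fold between any libraries. Ifi35, lowest in mutant 1, stood at 51.1 and 50.3 FPKM in the controls, 34.3 FPKM in mutant 1 and 49.4 FPKM in mutant 2. Both mutants lay below both controls with a change of -0.30 (SE 0.21, limma, adjusted p = 0.825). It was -0.04 without mutant 1, -0.56 without mutant 2 and -0.11 after rescaling. Ddx58, Irf9 and Ifi35 were the 3 members in that position, against 35.1% of all genes.

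**Figure D3:**
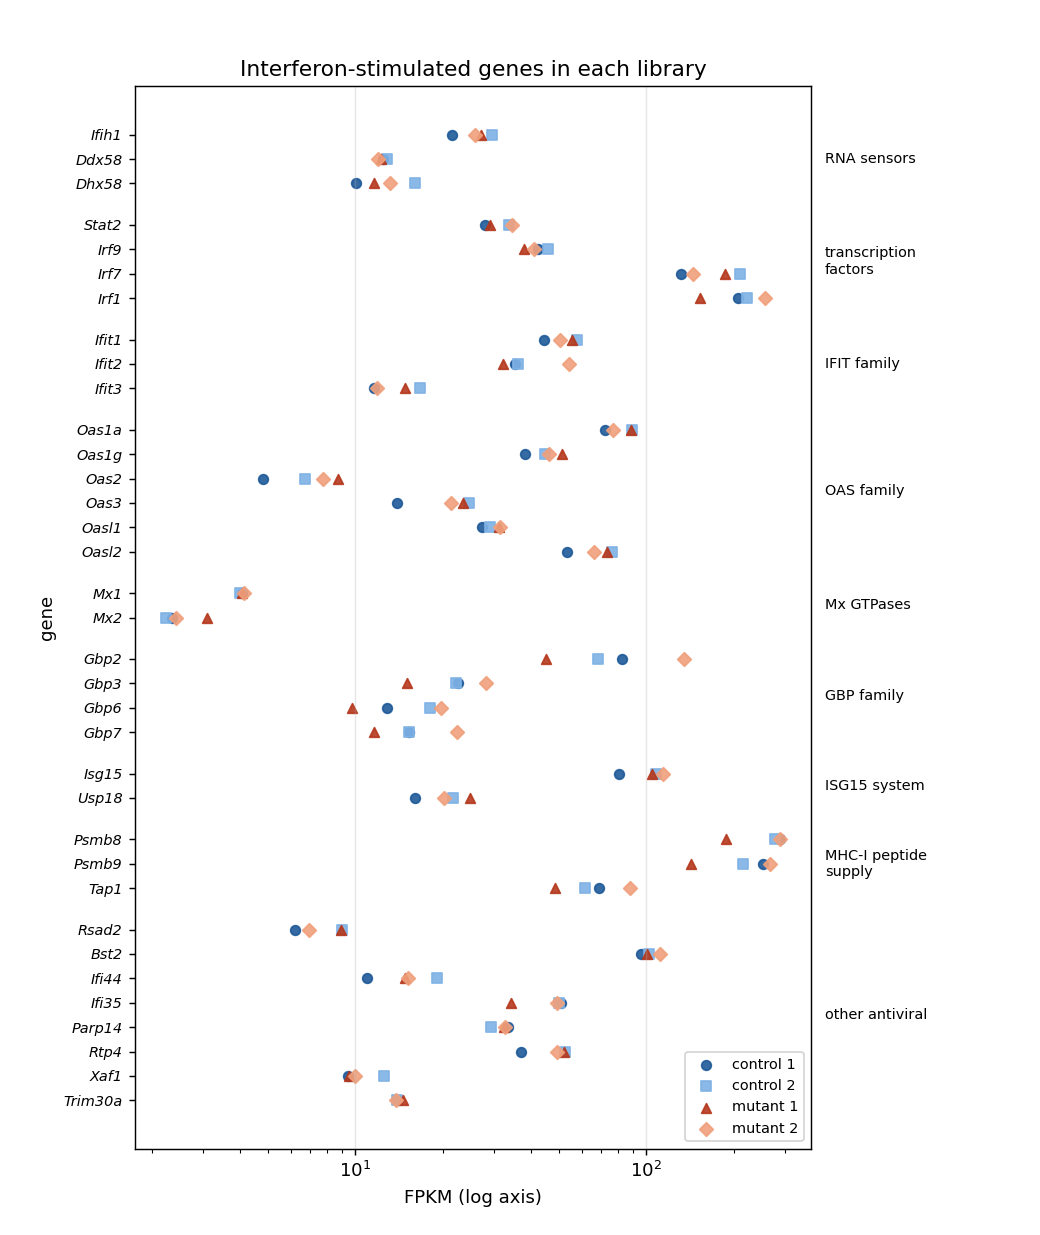
FPKM of the 35 genes on a log axis, with 1 symbol for each library and genes grouped by role. Blue and red symbols mix for most genes, control 1 stands apart to the left for Oas2, Oas3 and Isg15, and the mutants stand farthest apart for Gbp2 at 45.2 and 135 FPKM.

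The guanylate-binding proteins are GTPases that coat and break open vacuoles holding bacteria or parasites, and interferon gamma is their strongest inducer. They differed more between the mutants than between the groups. Gbp2 (mm9 chr3:142283627-142300972) stood at 82.8 and 68.4 FPKM in the controls, 45.2 FPKM in mutant 1 and 135 FPKM in mutant 2. The mutants lay on either side of both controls and were 2.99-fold apart, against 1.21-fold for the controls. The means of 75.6 ± 10.2 and 90.1 ± 63.5 FPKM (SD, n = 2) gave a change of 0.06 with a 95% interval of -0.92 to 1.03 (limma, adjusted p = 0.971). The change was -0.08 without control 2, -0.73 without mutant 2 and 0.84 without mutant 1.

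Gbp3 and Gbp7 also had mutant 1 lowest and mutant 2 highest. Gbp3 stood at 22.5 and 22.2 FPKM in the controls, 15.0 FPKM in mutant 1 and 28.2 FPKM in mutant 2. Gbp7 stood at 15.3 FPKM in each control, 11.6 FPKM in mutant 1 and 22.3 FPKM in mutant 2. The controls of both genes were at most 1.014-fold apart, whereas the mutants were 1.88-fold and 1.92-fold apart. Gbp6 stood at 12.8 and 18.1 FPKM in the controls and at 9.77 and 19.6 FPKM in the mutants, and reads of its close copies on chromosome 5 may be shared, since its deposited count ratio of 0.286 was the lowest among the members. In the family 2 of 4 genes were higher in the mutants as deposited and 4 of 4 after rescaling, against 17.4% and 51.0% of all genes.

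Psmb8 and Psmb9, subunits of the immunoproteasome that cuts peptides for MHC class I, and Tap1, part of the pump that carries them into the endoplasmic reticulum, lie together in the MHC on chromosome 17. Psmb8 (mm9 chr17:34335140-34338399), the most abundant member, stood at 288 and 276 FPKM in the controls, 188 FPKM in mutant 1 and 289 FPKM in mutant 2. Psmb9 stood at 251 and 214.5 FPKM in the controls and at 142.5 and 266 FPKM in the mutants, and Tap1 at 68.6 and 61.5 against 48.4 and 88.0 FPKM. For all 3 genes mutant 1 was the lowest library and mutant 2 the highest. The change of Psmb8 was -0.27 (SE 0.22, limma, adjusted p = 0.825), and it was 0.04 without mutant 1 and -0.59 without mutant 2. Psmb9 and Tap1 overlap head to head on mm9, so reads at their shared start cannot be told apart if strand was not used. After rescaling, 2 of the 3 were lower and 1 higher in the mutants, as they were before it. Of all genes, 51.0% were higher after rescaling and 17.4% before it.

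Genes of the pathway outside the member list were also counted, and 0 of them passed the adjusted threshold in limma in any list. Interferon gamma was the only ligand gene that passed the filter. Ifng stood at 1.20 and 0.885 FPKM in the controls, 0.287 FPKM in mutant 1 and 1.16 FPKM in mutant 2. These values rested on 18, 15, 2 and 18 fragments in that order. Ifng was highest in control 1 and lowest in mutant 1, as deposited the lowest library for 66.3% of all genes. Its change of -0.42 (SE 0.39, limma, adjusted p = 0.825) became 0.12 without mutant 1 and -0.96 without mutant 2. The other 18 ligand genes found stayed under the filter. Ifnb1, Ifna1, Ifna5, Ifna6, Ifna7 and Ifna13 were at 0 FPKM in all 4 libraries, although the authors' deposited table gives Ifna7 a mean of 2.05 normalized counts in the mutants. Of 19 ligand genes found, 2, 2, 13 and 3 were listed above 0 in control 1, control 2, mutant 1 and mutant 2. In the same order, 3.21%, 3.03%, 44.2% and 2.59% of 1121 olfactory receptor genes, which code for odorant receptors of the nose, were above 0, and the part of this in the ligand values was not tested.

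The 6 receptor genes tested were all lower in the mutants as deposited, and 4 of 6 after rescaling. Most of all tested genes were lower as deposited too, with 17.4% higher, and 51.0% were higher after rescaling. The same shares stand beside the counts of signalling and sensing genes below. Ifnar2, a chain of the type I receptor, stood at 25.3 and 17.3 FPKM in the controls and at 14.0 and 18.2 FPKM in the mutants, and Ifngr2, a chain of the gamma receptor, at 117 and 118.8 against 104 and 98.0 FPKM. The changes were -0.38 (SE 0.24) and -0.22 (SE 0.16), each with an adjusted p of 0.825 in limma. The change of Ifnar2 was -0.12 without control 1, and that of Ifngr2 was -0.04 after rescaling. Among 8 signalling genes, 8 lower as deposited and 4 after rescaling, Tyk2, a receptor kinase, had a change of -0.38 (SE 0.24, limma, adjusted p = 0.825) and Ptpn2, a phosphatase that damps the pathway, one of -0.31 (SE 0.20, adjusted p = 0.825). Jak2 was left out because its estimate had a status other than OK in a library. Among 16 genes of sensing upstream of interferon, 15 lower as deposited and 8 after rescaling, Irf5 had a change of -0.66 (SE 0.35, limma, adjusted p = 0.825) and Irf3, which switches on interferon beta, one of -0.40 (SE 0.25, adjusted p = 0.825). The change of Irf5 was -0.18 without control 1 (adjusted p = 1), -0.33 without mutant 1 and -1.14 without control 2 (adjusted p = 0.0388), a fit in which control 1 alone stood for its group and was assumed to vary like the mutants. Without mutant 1 the changes of Irf3, Tyk2 and Ptpn2 were -0.05, -0.08 and -0.11, and after rescaling they were -0.21, -0.20 and -0.13.

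Other genes induced by type I interferon were also described by library. Of 29 tested, 13 were lowest in control 1 after centring, against 26.8% of all genes, and 6 in mutant 1, against 28.7%, and their median change was 0.03. The apolipoprotein L genes Apol9a and Apol9b had the smallest unadjusted p in this list. Apol9a stood at 19.3 and 31.2 FPKM in the controls and at 32.3 and 36.1 FPKM in the mutants, and Apol9b at 13.7 and 22.8 against 24.8 and 23.2 FPKM. Both had mutants above controls with control 1 lowest, at changes of 0.47 (SE 0.24) and 0.43 (SE 0.25), each with an adjusted p of 0.825 in limma. Without control 1 the changes were 0.13 and 0.07, and without control 2 they were 0.81 and 0.79. Apol9a and Apol9b are close copies and may share reads.

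The GTPases and chemokines induced by interferon gamma were mostly lowest in mutant 1 and highest in mutant 2. Of 18 tested, 12 were lowest in mutant 1 and 15 highest in mutant 2 after centring, against 28.7% and 23.5% of all genes. Their median centred values were 0.12 and -0.17 for control 1 and control 2, and for the mutants -0.35 and 0.47. Gbp9 and Gbp8, with the smallest unadjusted p of the list, had changes of -0.28 (SE 0.36, limma, adjusted p = 0.837) and -0.27 (SE 0.37, adjusted p = 0.839). They ran from -0.84 without control 2 to 0.28 without control 1 for Gbp9, and from -0.85 without mutant 2 to 0.31 without mutant 1 for Gbp8. Of the 18, 9 were higher in the mutants as deposited and 13 after rescaling, against 17.4% and 51.0% of all genes.

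MHC class I genes beyond the peptide supply members held the only pathway genes with an unadjusted p under 0.05. These were 3 of 14, all lower in the mutants, against 4.12% of all genes lower at that p. H2-Q4, a class Ib heavy chain, stood at 138 and 133.8 FPKM in the controls and at 79.4 and 95.9 FPKM in the mutants. H2-D1, a classical heavy chain, stood at 1139 and 1252 FPKM in the controls and at 894 and 904 FPKM in the mutants. In both genes the mutants lay below both controls, as they did in 4 of the 14 genes and in 35.1% of all tested genes. The changes were -0.64 (SE 0.18) and -0.41 (SE 0.16), each with an adjusted p of 0.825 in limma. Tap2, the partner of Tap1, was the third. After rescaling 1 of the 14 was lower at that p, on a scale to which the 4.12% does not apply. This was H2-Q4, with a change of -0.45 and an adjusted p of 0.998 (limma). On that scale 7 of the 14 were lower at any p, where 51.0% of all genes were higher, and the change of H2-D1 was -0.22. Class I heavy chain genes are close copies that vary between mouse strains, and the strain was mixed, so their read counts are uncertain.

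Markers of other cell types also differed between the libraries. Control 1, the lowest library for most members, held the largest sum of the 8 B and plasma cell markers. They summed to 1345 and 542.5 FPKM in the controls and to 625.6 and 519.7 FPKM in the mutants. Most of that sum was Igj, the joining chain of plasma cells, and the other 7 markers summed to 135.4 and 10.07 FPKM in the controls and to 14.48 and 11.95 FPKM in the mutants. Control 1 was also the lowest after centring for 9 of 11 epithelial markers, against 26.8% of all genes. Mutant 1 was the lowest library for the guanylate-binding proteins and peptide supply genes. After centring it was also lowest for 11 of 12 markers of macrophages, dendritic cells and neutrophils, against 28.7% of all genes. Of these 12 markers, 1 was highest in mutant 2 after centring, against 23.5% of all genes. Their sums were 827.2 and 555.3 FPKM in the controls, 365.1 FPKM in mutant 1 and 649.1 FPKM in mutant 2, with the neutrophil genes S100a8 and S100a9 listed at 0 in mutant 1. The 17 T and NK cell markers summed to 335.1 and 219.6 FPKM in the controls and to 140.3 and 155.8 FPKM in the mutants, and 10 of them were lower at an unadjusted p under 0.05, against 4.12% of all genes, with an adjusted p of 0.469 at the smallest (limma). After rescaling 6 of the 17 were lower at that p, on a scale to which the 4.12% does not apply. On that scale 16 of the 17 were lower at any p, where 51.0% of all genes were higher. In 11 of the markers both mutants lay below both controls as deposited, against 35.1% of all genes. Ccl5 led these at 153.9 and 98.5 FPKM in the controls and 47.2 and 63.8 FPKM in the mutants. Of the 6 markers of plasmacytoid dendritic cells, the main makers of interferon alpha, Siglech and Cox6a2 lay under the filter and were not tested. Siglech stood at 0.728 and 0.484 FPKM in the controls and at 0.392 and 0.206 FPKM in the mutants, and Cox6a2 was listed at 0 in control 1 and mutant 1. The 4 tested markers had a median change of -0.37, against -0.17 for all tested genes, with an unadjusted p of 0.114 at the smallest (limma). In the authors' deposited table Klk1, a tested marker, had a control mean of 7088 normalized counts, against 18.2 for Siglech. The change of the tested markers is therefore not read as a change of these cells. The part of these cell types in the members' values was not tested.

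**Figure D4:**
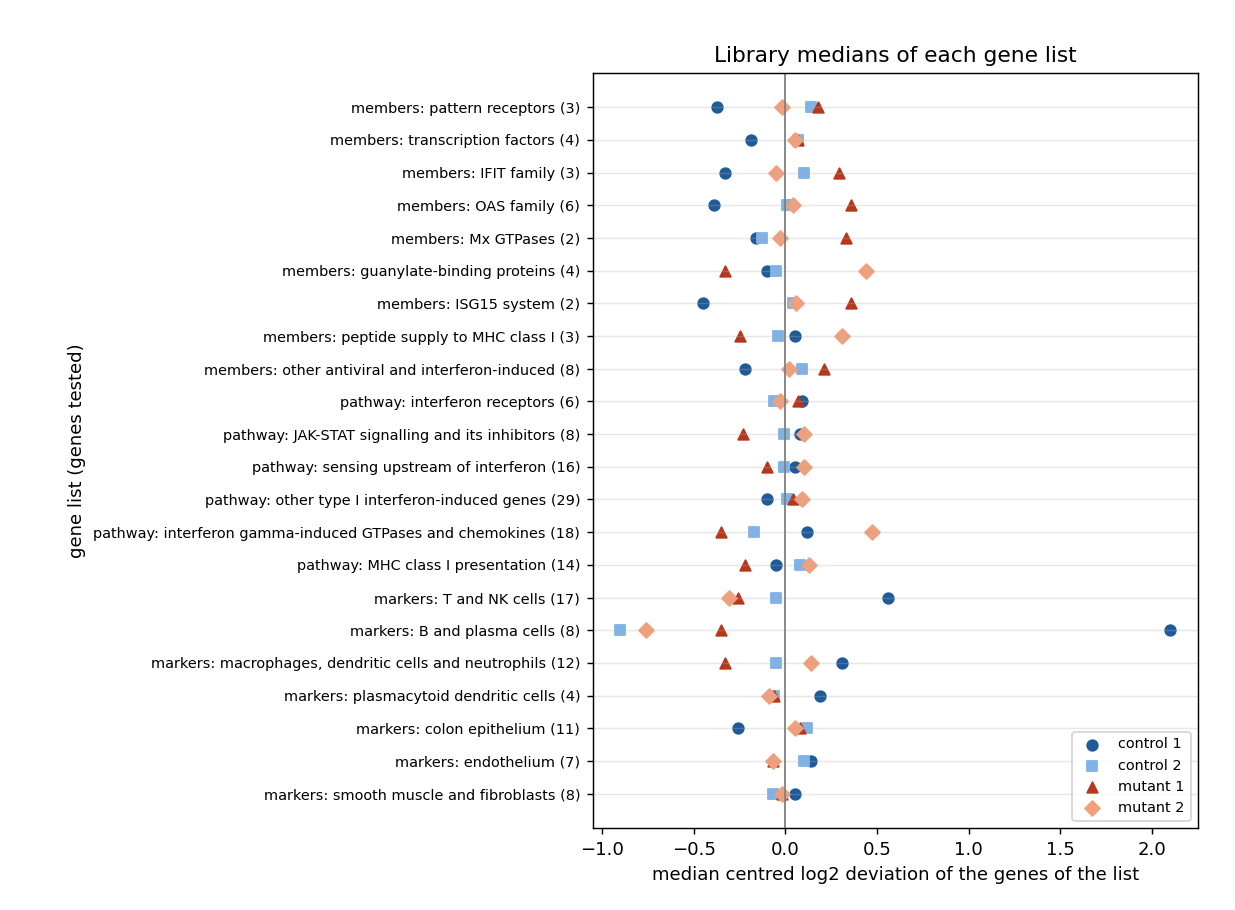
Median centred log2 deviation of each gene list in each library, with the number of tested genes in parentheses and 1 symbol for each library. Control 1 lies lowest for the OAS, IFIT and ISG15 lists and highest for B and plasma cells at 2.10, and the gamma-induced list spans -0.35 in mutant 1 to 0.47 in mutant 2.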

How the data were processed

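Whole-colon RNA of 2 control and 2 mutant libraries was sequenced. Per the submitters' processing notes, bcl2fastq 1.8.4, TopHat, Cufflinks and DESeq were used with the build mm9; no other version is given. Per the file headers, the authors deposited FPKM with a 95% interval and a status for 23699 gene rows, and isoform files with FPKM, the coverage signal and the length of each transcript. The authors' deposited comparison table holds mean normalized counts per group (a signal with no values per library), a fold change as a ratio and as log2, and p-values before and after adjustment. FPKM are not counts, so the count tools planned in case counts were given were not run.

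The 306 rows whose status was not OK in every library were dropped, and summing by symbol left 23074 genes. The 13997 whose mean reached 0.5 FPKM entered limma 3.58.1 (R 4.3.3) on log2(FPKM + 0.5), with a trended variance and p adjusted by Benjamini-Hochberg over all tested genes at 0.05. Changes on this scale understate those of low genes. The fit had 2 residual and 6.27 prior degrees of freedom. With 2 against 2, an exact two-sided permutation test cannot go below 0.333, so none was run. Fragments behind a value were derived from the width of its interval, and depth from coverage per FPKM; both cover counting error only. A deposited count ratio is the authors' mean control count over those fragments; it was under 0.6 in 6.02% of 12401 genes and in 4 of the 35 members.

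The members and lists were chosen with earlier results of these data known. Named were the members highest in FPKM or smallest in p in each role group, the 2 genes with the smallest p in each pathway list, Nkx2-2 and Tph1; other genes were picked after their values were seen. Same-numbered control and mutant libraries did not deviate together (r = -0.00217 across 13997 genes, which are not independent), and no label pairs them. Coordinates are mm9 as in the files, except promoters, which are RefSeq sequences on GRCm38.p6. Gene overlaps come from GENCODE vM1.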

Additional observations from a re-analysis of the deposited data

How the results depend on the processing

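No member passed the threshold under any of the 14 alternatives run (pseudocount, filter, scaling, variance model, row status, replicate block, each library left out, the authors' deposited table); the count tools were not run, since no counts were given. Over all genes, 9 passed, against 2 with no filter, 3 after median ratio rescaling and 2 after quantile normalization. With the replicate number as a block, 195 genes passed and 0 members, and the member median was 0.05; the libraries share only a number, so this pairing has no basis in the labels. With a library left out, where the lone library of its group is assumed to vary like the other group, 8 to 362 genes passed (124 without control 1, 362 without control 2), and the member median ran from -0.11 to 0.19. That median was 0.23 after rescaling, 0.21 after quantile normalization and 0.21 in the authors' deposited table. Of the log2 changes of the 16 named members, 22 turned sign under an alternative and 202 did not. Ddx58 went to 0.12 with rescaling, 0.13 with quantile normalization and 0.06 in the deposited table, Irf9 to 0.03 and 0.01 in the first 2 of these, Irf1 to 0.07, 0.03 and 0.07, and Gbp3 to 0.06, 0.05 and 0.09. With a library left out, changes ran from -0.16 to 0.29 (Ifih1), -0.48 to 0.26 (Irf1), -0.12 to 0.25 (Ifit1, with -0.00 without mutant 1), -0.15 to 0.60 (Ifit2), -0.12 to 0.20 (Oas1a), -0.73 to 0.84 (Gbp2), -0.56 to 0.33 (Gbp3), -0.59 to 0.04 (Psmb8), -0.96 to 0.12 (Ifng), -0.84 to 0.28 (Gbp9) and -0.85 to 0.31 (Gbp8). The cause was not tested. Pathway genes were put through these alternatives after the data were seen, and Irf5 ran from -1.14 without control 2, past the threshold, to -0.18 without control 1. Mutant 1 had the least depth, and its low values rest on the fewest fragments.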
